A study of Mus musculus with 6 samples.

Results

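Cardiac myosin is the motor of the heart's thick filament, a pair of heavy chains that each carry an essential and a regulatory light chain. The 6 genes described here encode its heavy chains Myh6 and Myh7, the ventricular light chains Myl2 and Myl3, and the atrial light chains Myl7 and Myl4. They were read by every probe set whose platform annotation names exactly 1 of these genes. This gave 10 probe sets of 45101 on the array and 6 genes of the 18193 that some probe set names alone: 3 probe sets for Myl3, 2 each for Myh6 and Myl4, and 1 each for Myh7, Myl2 and Myl7. A further 2 probe sets name both Myh6 and Myh7 and are not members.

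The samples were left ventricles of male C57BL/6 mice aged 12 to 16 weeks. In the knockout group (akt2-/-, 3 samples) the Akt2 gene, which encodes a kinase of the insulin pathway, carries a targeted disruption that had been backcrossed to C57Bl/6 more than 7 times. The wild type group (3 samples) was age-matched and received no treatment that the labels name, nor did the knockouts. The labels do not say in which cells the disruption acts or whether each sample is its own animal. All p-values therefore refer to the spread among these 6 samples, which may be technical.

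In the adult mouse ventricle the main heavy chain is alpha myosin, encoded by Myh6, which hydrolyses ATP quickly. Beta myosin, encoded by Myh7, is slower. It prevails in the fetal mouse ventricle and returns when the adult heart is overloaded or short of thyroid hormone. Myl2 is the ventricular regulatory light chain, which is phosphorylated by the cardiac myosin light chain kinase Mylk3, and Myl3 is the ventricular essential light chain. Myl7 and Myl4 are the regulatory and essential light chains of atrial myocytes, and their transcripts fall to low levels in the ventricle as it matures.

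Promoter windows from RefSeq, build GRCm38.p6, were found for all 6 genes, 8 windows in all, since Myh7 and Myl2 have 2 annotated starts each. They are shown for 4 genes, so that each kind of chain is represented: Myh6 and Myh7 for the heavy chains, Myl3 for the ventricular light chains and Myl7 for the atrial light chains. Each runs from 250 bases before to 20 bases from the annotated start on, 270 bases in all, 5′ to 3′ on the gene's strand. Capitals mark 4 motifs on either strand, and none of the marked matches overlaps another: the TATA box (TATAAA), the MCAT element that TEAD factors bind (CATTCC), the CArG box that serum response factor binds, and the core of sites for GATA factors (GATAA). The Myh7 window is that of the more upstream start.
Myh6, chr14:54966588-54966857, minus strand: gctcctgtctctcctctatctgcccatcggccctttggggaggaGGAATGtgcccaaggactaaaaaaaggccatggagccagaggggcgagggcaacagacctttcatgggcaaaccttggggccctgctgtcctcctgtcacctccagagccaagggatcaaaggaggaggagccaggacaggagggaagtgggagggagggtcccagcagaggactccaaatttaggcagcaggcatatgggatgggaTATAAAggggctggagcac
Myh7, chr14:54994607-54994876, minus strand: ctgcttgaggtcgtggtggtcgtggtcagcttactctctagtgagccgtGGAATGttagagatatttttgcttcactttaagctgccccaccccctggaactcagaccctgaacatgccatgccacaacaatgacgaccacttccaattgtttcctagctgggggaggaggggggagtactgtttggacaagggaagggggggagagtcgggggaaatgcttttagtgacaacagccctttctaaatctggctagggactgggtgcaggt
Myl3, chr9:110763428-110763697, plus strand: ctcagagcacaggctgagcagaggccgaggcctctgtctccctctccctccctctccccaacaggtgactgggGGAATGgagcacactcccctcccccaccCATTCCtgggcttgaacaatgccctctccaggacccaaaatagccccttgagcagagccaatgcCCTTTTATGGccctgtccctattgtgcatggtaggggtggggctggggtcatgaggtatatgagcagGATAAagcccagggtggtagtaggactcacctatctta
Myl7, chr11:5898763-5899032, minus strand: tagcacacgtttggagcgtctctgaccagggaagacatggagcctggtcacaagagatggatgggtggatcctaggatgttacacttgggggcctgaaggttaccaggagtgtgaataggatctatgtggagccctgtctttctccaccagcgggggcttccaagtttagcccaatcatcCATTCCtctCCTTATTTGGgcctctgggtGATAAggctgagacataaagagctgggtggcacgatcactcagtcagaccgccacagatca

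All 4 printed windows hold the MCAT letters, at positions -206 to -201 in Myh6, -201 to -196 in Myh7 and -70 to -65 in Myl7, counted from the start, and at 2 places in Myl3. The MCAT letters are missing from both Myl2 windows, the other Myh7 window and the Myl4 window, which are not printed. Of 32851 such windows of all genes, 13.5% hold these letters. Myl3 and Myl7 also share a CArG box, at -85 to -76 and -61 to -52, and GATAA, which stand in 1.53% and 23.8% of all windows. TATAAA, in 12.9% of windows, is found among the printed ones only in Myh6, at 2 to 7, past the annotated start. A Myl2 window that is not printed holds it on the opposite strand. The window of Myl4 holds none of the 4 motifs. These matches describe letters and show no binding, and the arrays do not measure promoters.

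Labelled cRNA of each sample was read on 1 Affymetrix mouse array, and the deposited value is a MAS5 signal. This is a linear brightness computed from the perfect-match probes of a probe set and their mismatch partners. A signal depends on the probes as well as on the transcript, so signals are compared between arrays for a probe set and not between probe sets. By its brightest probe set, Akt2 had signals of 2362.6, 2561.3 and 2505.4 in the wild type arrays and of 477.8, 394.5 and 255.4 in the knockout arrays (limma adjusted p = 0.0638 over all genes). In both genotypes the replicate 1 array differed from the rest. The 18S ribosomal RNA controls of these arrays had median signals of 57275 and 82330, against 152.7 to 446.7 elsewhere, and their highest signals were 118965 and 244587, against 66060 to 89791. The knockout and wild type arrays of replicate 1 are therefore also compared with each other alone, and replicates 2 and 3 alone, beside each result. What sets these arrays apart is not stated in the labels. In bulk tissue, fewer cells of a type and less RNA per cell cannot be told apart.

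Signals were tested as log2(signal + 21.7) with limma over the 22519 probe sets at or above the median log2 value of 6.868, knockout against wild type, and p-values were adjusted by Benjamini and Hochberg's method, with 0.05 as the threshold. A log2 difference on that scale understates the change of dim probe sets. All 10 myosin probe sets passed the filter. In 0 of the 10 was the adjusted p under 0.05, and this holds for 0 of all 22519 probe sets (0%). By unadjusted p under 0.05, 0 of 10 passed, beside 453 of all probe sets (2.01%). The knockout arrays all lay on one side of the wild type arrays in 0 of the 10, against 7.3% of all tested probe sets. With the replicate 1 arrays as a block, 1 of the 10 had an unadjusted p under 0.05, the dimmer Myl4 probe set, beside 7.77% of all, while the adjusted p was under 0.05 in 0 of the 10 and 0.00444% of all. In the fit without a block none of the Akt2 probe sets passed either. Their lowest adjusted limma p was 0.18, at a log2 difference of -2.69. No myosin gene was thus called as higher or lower, by a test that did not call the disrupted gene. The 95% intervals given below say how large a difference each probe set leaves room for.

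**Figure D1:**
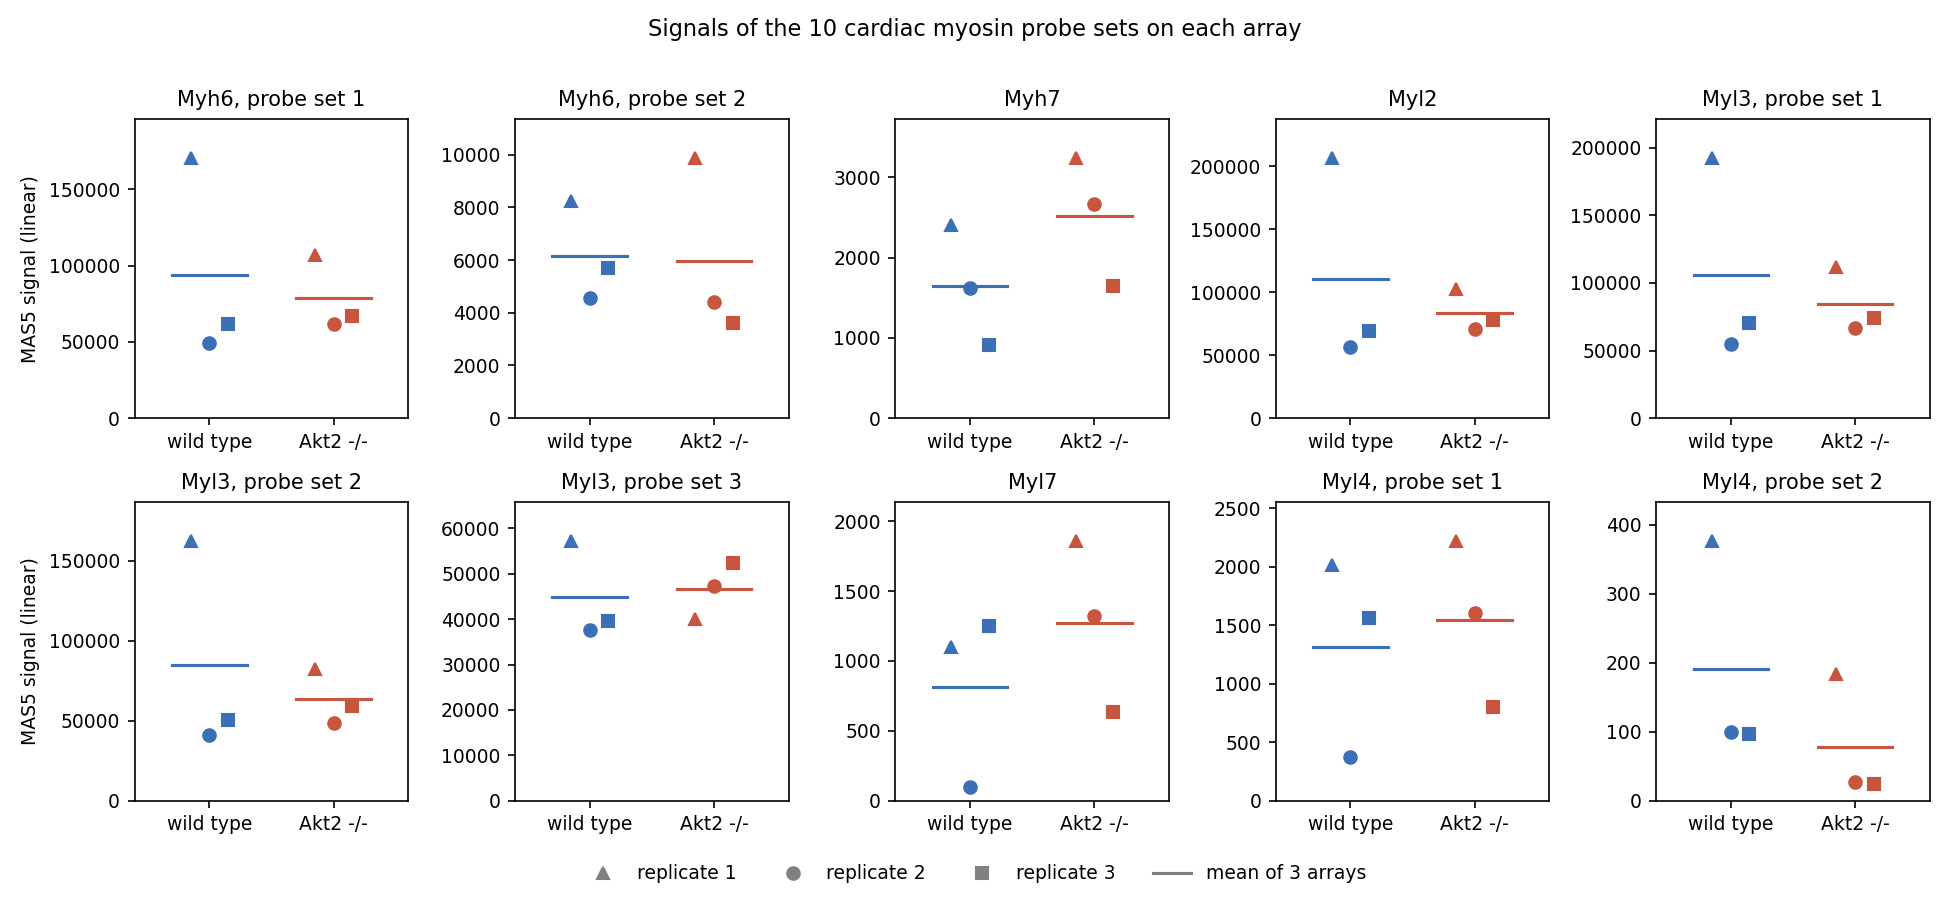
MAS5 signal (linear, vertical axis from 0) of each of the 10 myosin probe sets in the 3 wild type and 3 knockout arrays, with a line at the mean of each group and a marker shape for each replicate number. For the brighter Myh6 probe set, Myl2 and the brighter pair of Myl3, wild type 1 is highest and knockout 1 next. In the remaining Myl3 probe set wild type 1 is highest, but knockout 1 is the lowest knockout array. In Myh7, the dimmer Myh6 probe set and both of Myl4, the replicate 1 array is also the highest of its genotype. Both genotypes overlap in every panel.

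Myh7, the slow beta heavy chain, was read by a single probe set (1448553_at). Its signals were 2401.4, 1617.5 and 917.5 in wild type replicates 1, 2 and 3, and 3241.2, 2663.9 and 1652.1 in the knockout. The groups overlapped, since knockout 3 lay below wild type 1 and close to wild type 2, while each knockout array was above the wild type array of its own number. The means were 2519 ± 804 (SD, n = 3) in the knockout and 1645 ± 742 (SD, n = 3) in the wild type group. The log2 difference, taken between the means of log2(signal + 21.7), was 0.66 (SE 0.406). Its 95% interval ran from -0.31 to 1.63, that is from 0.807-fold to 3.09-fold.

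Between arrays of the same number the log2 difference of Myh7 was 0.43, 0.71 and 0.83 for numbers 1, 2 and 3. The arrays give little ground for matching numbers 2 and 3 in this way. Deviations from the genotype mean correlated at 0.45 and 0.39 within these numbers, and at 0.44 and 0.36 across them. Matched crosswise, knockout 3 (1652.1) would be set against wild type 2 (1617.5) and lie only slightly above it. Of all tested probe sets, 14.5% were higher in the knockout in all 3 pairs, and Myh7 was the only one of the 10 myosin probe sets among them. The limma adjusted p was 1 without a block, 0.645 with the replicate 1 arrays as a block and 0.827 with the replicate number as a block. The corresponding unadjusted limma p-values were 0.151, 0.0583 and 0.00728, the last of which depends on matching numbers 2 and 3. In that last fit 5.63% of all probe sets were under 0.05 before adjustment, and 2 of the 10 myosin probe sets did, Myh7 and the dimmer one of Myl4.

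Myh6, the fast alpha heavy chain, gave a different picture in each of its probe sets. The brighter (1448826_at) stood at rank 9 among 45037 probe sets by mean log2 signal. Its signals were 170581, 49397 and 61710 in the wild type and 107052, 62014 and 67221 in the knockout. Wild type 1 was highest and knockout 1 next, and in replicates 2 and 3 the knockout arrays were higher than the wild type arrays. The log2 difference was -0.07 (SE 0.488), with a 95% interval from -1.23 to 1.09. Taken apart, the replicate 1 arrays gave -0.67 and the other arrays 0.23.

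The dimmer Myh6 probe set (1417729_at) had 8255.8, 4547.4 and 5696.9 in the wild type and 9868.6, 4419.5 and 3597.4 in the knockout. Here knockout 1 was the highest array and knockout 3 the lowest. The log2 difference was -0.15 (SE 0.42, 95% interval -1.15 to 0.85), made up of 0.26 between the replicate 1 arrays and -0.35 over the others. The probe sets of Myh6 thus differed in sign between the replicate 1 arrays and again over the other arrays. Of the probe sets that name Myh6 and Myh7 together, the brighter (1448554_s_at) had log2 differences of -0.67 between the replicate 1 arrays and 0.19 over the others, and the dimmer (1448827_s_at) had -0.25 and -0.23. The stretch of transcript behind each probe set was not looked up here, and the heavy chains are close paralogs whose probes can share targets.

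The balance of the heavy chains within an array was followed as log2 of the Myh7 signal minus log2 of the brighter Myh6 signal, set against the wild type mean. It was -0.44, 0.78 and -0.34 in wild type 1, 2 and 3 and 0.66, 1.17 and 0.37 in knockout 1, 2 and 3. The wild type arrays spread more widely than the knockout arrays, and wild type 2 lay above knockouts 1 and 3. The mean difference was 0.73, with SDs of 0.404 in the knockout and 0.68 in the wild type. With the dimmer Myh6 probe set instead, the knockout arrays lay at 0.35, 1.23 and 0.84 and the wild type arrays at 0.18, 0.47 and -0.65. In this version knockout 1 lay below wild type 2 and the groups overlapped again. As the balance is made of the values above, it is a description and no further test.

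Myl2, the ventricular regulatory light chain (1448394_at), stood at rank 3 in brightness. Its signals were 206483, 56149 and 68981 in the wild type and 102367, 70655 and 77765 in the knockout. Wild type 1 was the highest array, and within replicates 2 and 3 both knockout arrays were above both wild type arrays. The log2 difference was -0.17 (SE 0.49, 95% interval -1.33 to 1.00). It was -1.01 between the replicate 1 arrays and 0.25 over replicates 2 and 3, where the unadjusted limma p was 0.163.

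Myl3, the ventricular essential light chain, was read by 3 probe sets. The brightest (1427768_s_at) had 192263, 54905 and 70041 in the wild type and 111516, 66829 and 74150 in the knockout. The next (1428266_at) had 162592, 40730 and 50526 in the wild type and 82354, 48721 and 59413 in the knockout. Both were highest in wild type 1 and second in knockout 1. Their log2 differences were -0.14 (SE 0.484) and -0.16 (SE 0.529), with 95% intervals from -1.29 to 1.01 and from -1.42 to 1.10. The replicate 1 arrays gave -0.79 and -0.98, and replicates 2 and 3 gave 0.18 and 0.25.

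The remaining Myl3 probe set (1427769_x_at) was less spread. Its signals were 57340, 37512 and 39611 in the wild type and 40085, 47225 and 52329 in the knockout, and knockout 1 was here the lowest knockout array. The means were 46547 ± 6151 (SD, n = 3) in the knockout and 44821 ± 10893 (SD, n = 3) in the wild type, with a log2 difference of 0.07 (SE 0.231). Its 95% interval, from 0.718-fold to 1.54-fold, was the narrowest of the 10 probe sets. In replicates 2 and 3 alone the difference was 0.37, with an unadjusted limma p of 0.0334 that became 0.519 after adjustment; 9.31% of all probe sets were under 0.05 before adjustment in those 4 arrays.

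**Figure D2:**
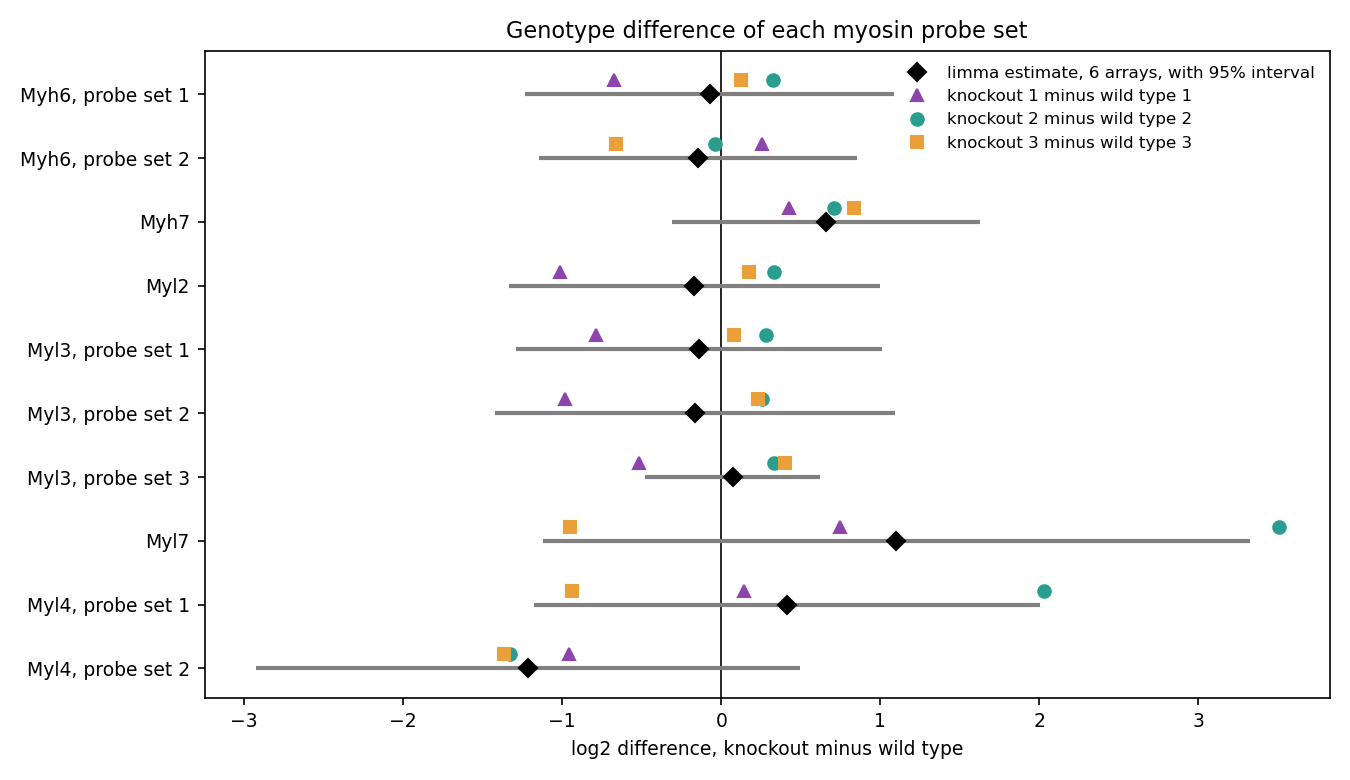
Log2 difference, knockout minus wild type (horizontal axis), of each myosin probe set, those of a gene numbered from the brightest: diamonds are the limma estimates over 6 arrays with their 95% intervals, and small markers are the differences between arrays of the same number. Every interval includes 0; the bright probe sets of Myh6, Myl2 and Myl3 have the replicate 1 pair below 0 and the others above it, while Myh7 lies above 0 in all 3 pairs.

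In 5 probe sets, the brighter one of Myh6, that of Myl2 and all 3 of Myl3, the genotype difference was below 0 between the replicate 1 arrays and above 0 over replicates 2 and 3, as in 24.5% of all probe sets. A term for this difference of differences was tested with limma in all 22519 probe sets. It was -0.90 for Myh6, -1.26 for Myl2 and -0.97, -1.23 and -0.88 for the Myl3 probe sets, with unadjusted p between 0.00528 and 0.0218 and adjusted p between 0.0995 and 0.171. No myosin probe set passed, 0 of 10, beside 143 of 22519 (0.635%). By unadjusted p under 0.05 it was 5 of 10, beside 20.9% of all. The spread in this fit comes from replicates 2 and 3 alone.

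The same pattern was seen in bright probe sets at large. These 5 are among the 112 brightest of the tested probe sets, the top 0.5%. Of those 112, 112 were lower in knockout 1 than in wild type 1, by a median of -0.49, and 109 were higher in the knockout in replicates 2 and 3, by a median of 0.14. In the next 113 the medians were -0.32 and 0.06, and in the 675 probe sets between 2% and 5% from the top they were -0.03 and 0.01. After quantile normalization, which gives every array the same distribution of values, the difference of differences of the brighter Myh6 probe set was 0.01 in place of -0.90. It was -0.27 for Myl2 and -0.02, -0.38 and -0.41 for Myl3. The genotype differences on that scale were 0.06 for the brighter Myh6 probe set, 0.03 for Myl2 and 0.01, 0.03 and 0.16 for Myl3, with SEs between 0.151 and 0.222. Quantile normalization takes the top ranks as equal on all arrays, so it also removes any true shift that the brightest transcripts share.

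**Figure D3:**
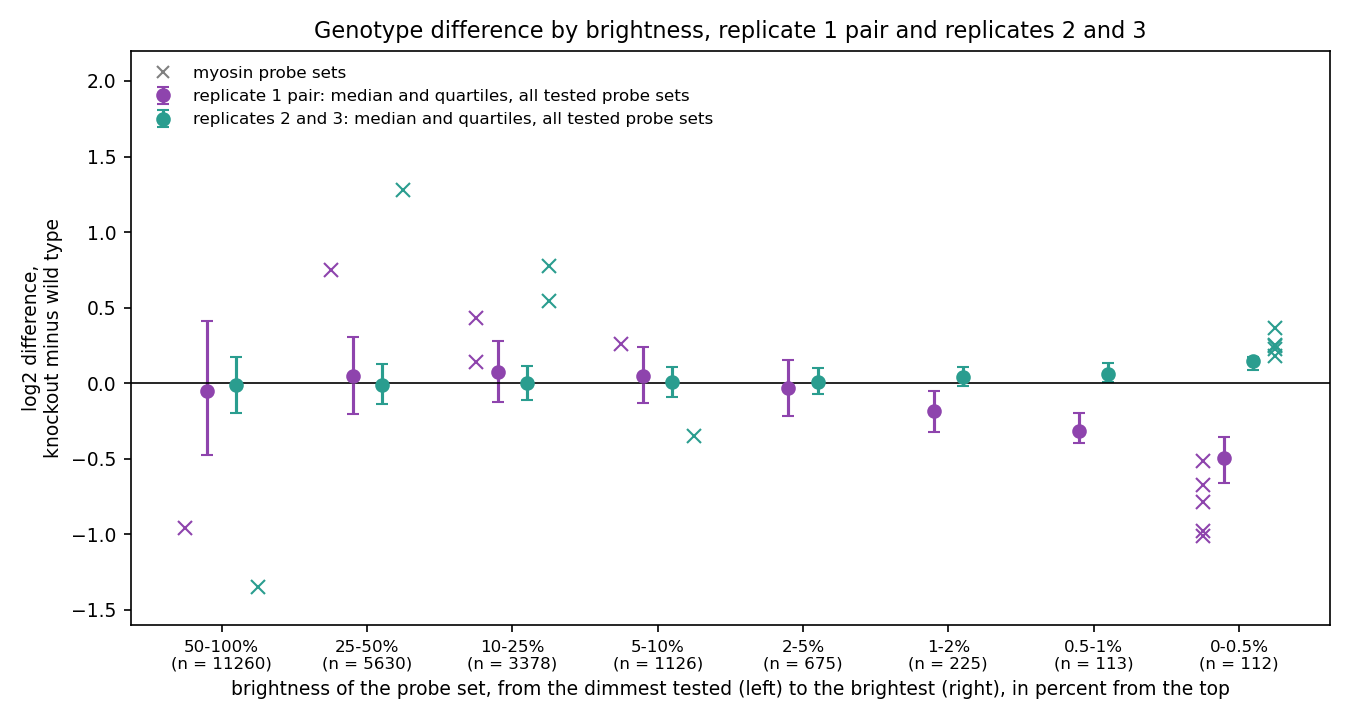
Log2 difference, knockout minus wild type (vertical axis), for all 22519 tested probe sets in bins of brightness (horizontal axis, percent from the top), as medians with quartiles for the replicate 1 arrays and for replicates 2 and 3; crosses are the 10 myosin probe sets. In the top 0.5% the medians part to -0.49 and 0.14, and the 5 bright myosin probe sets lie on the same sides.

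The members differed in how they moved from array to array. After the mean of the replicate 1 arrays and that of the others were taken out, the brighter Myh6 probe set, Myl2 and the brighter pair of Myl3 moved almost as 1, with Pearson correlations of 0.98 to 0.99 over the 6 arrays. Those with the last Myl3 probe set were 0.86 to 0.90. Myh7 did not move with them (-0.31 to 0.15), nor did the dimmer Myh6 probe set (-0.77 to -0.40). All 6 arrays and the brightness pattern are shared by these values, so they describe the arrays and have no p-value.

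Myl7, the atrial regulatory light chain (1449071_at), had 1101.2, 96.5 and 1246.3 in the wild type and 1861.2, 1320.5 and 635.2 in the knockout. Wild type 2 lay far below every other array, knockout 3 came next, and knockout 1 was highest. The means were 1272 ± 614 (SD, n = 3) in the knockout and 814.7 ± 626 (SD, n = 3) in the wild type. The log2 difference was 1.10 (SE 0.934), the highest of the 10, with a 95% interval from -1.12 to 3.32. It rested on wild type 2: without that array it was -0.01.

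Myl4, the atrial essential light chain, followed Myl7 in its brighter probe set (1422580_at). Signals were 2014.4, 376 and 1559.5 in the wild type and 2224.1, 1604.3 and 803 in the knockout. Again wild type 2 was lowest, knockout 3 next and knockout 1 highest. The log2 difference was 0.41 (SE 0.669, 95% interval -1.18 to 2.00), and without wild type 2 it was -0.31. For both genes the difference was positive in the replicate 1 and 2 pairs and negative in the replicate 3 pair, with 0.75, 3.51 and -0.95 for Myl7 and 0.14, 2.03 and -0.94 for Myl4. Across the 6 arrays the log2 signals of Myl7 and Myl4 had a Pearson correlation of 0.96, and of 0.97 with the means of the replicate 1 arrays and of the others taken out, as a description, since both were read on the same 6 arrays.

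The second Myl4 probe set (1457126_at) was dim, with a mean log2 value of 6.876 that passed the filter by a narrow margin. Its signals were 377.3, 99.6 and 96.9 in the wild type and 183.9, 26.5 and 24.4 in the knockout. Each knockout array was below the wild type array of its number, and the values of knockouts 2 and 3 came close to the pseudocount of 21.7. The groups overlapped because knockout 1 was above wild types 2 and 3. The log2 difference was -1.22 (SE 0.719, 95% interval -2.93 to 0.49), opposite in sign to that of the brighter Myl4 probe set. With the replicate 1 arrays as a block the SE was 0.133 and the limma adjusted p was 0.33, the unadjusted p being 0.000104. Of all tested probe sets, 14.6% were lower in the knockout in all 3 pairs, and this was the only myosin probe set among them.

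Other atrial genes were looked at beside Myl7 and Myl4, since a left ventricle sample can carry atrial tissue. Of 10 atrial markers listed, 7 were tested and 0 passed, with a median log2 difference of 0.13. The median was -0.14 between the replicate 1 arrays and -0.06 over replicates 2 and 3, so its sign was not stable. Bmp10 and Gja5 were below the filter, and no probe set names Adrb3 alone. Their summed signal ranged from 16724 to 18023 in the wild type and from 15543 to 21442 in the knockout, most of it from Nppa. Sln, sarcolipin, an inhibitor of the calcium pump that is mainly atrial in the mouse heart, had 205.2, 56.6 and 583.9 in the wild type and 613.6, 405.7 and 138.1 in the knockout. It too was lowest in wild type 2, then knockout 3, and highest in knockout 1. The Wnt pathway protein Dkk3, with 102.1, had its lowest signal in wild type 2 and its highest, 328.6, in knockout 1.

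Kcnj3, a subunit of the acetylcholine-activated potassium channel of atrial myocytes, was also lowest in wild type 2 (551.4) and highest in knockout 1 (1285.2). Of the 7 tested atrial markers, Sln, Dkk3 and Kcnj3 had wild type 2 lowest, knockout 3 next and knockout 1 highest. The other 4, Nppa, Stard10, Nr2f1 and Nr2f2, did not. Nppa, the precursor of atrial natriuretic peptide, had 12804, 14476 and 13298 in the wild type and 11646, 15028 and 18373 in the knockout. Kcnj3, Nppa and Nr2f2 are named here after their values were seen. Stard10 was lower in every knockout array (log2 -0.41, SE 0.229, limma adjusted p = 1), with its lowest signal in knockout 1 (1011.7). Nr2f1 had -0.35 (SE 0.293) and was lowest in knockout 3, and Nr2f2 had -0.10 (SE 0.157) and was lowest in knockout 1. Nr2f1 was -0.89 between the replicate 1 arrays and -0.08 over the others. The part of atrial tissue in the Myl7 and Myl4 values was not tested.

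**Figure D4:**
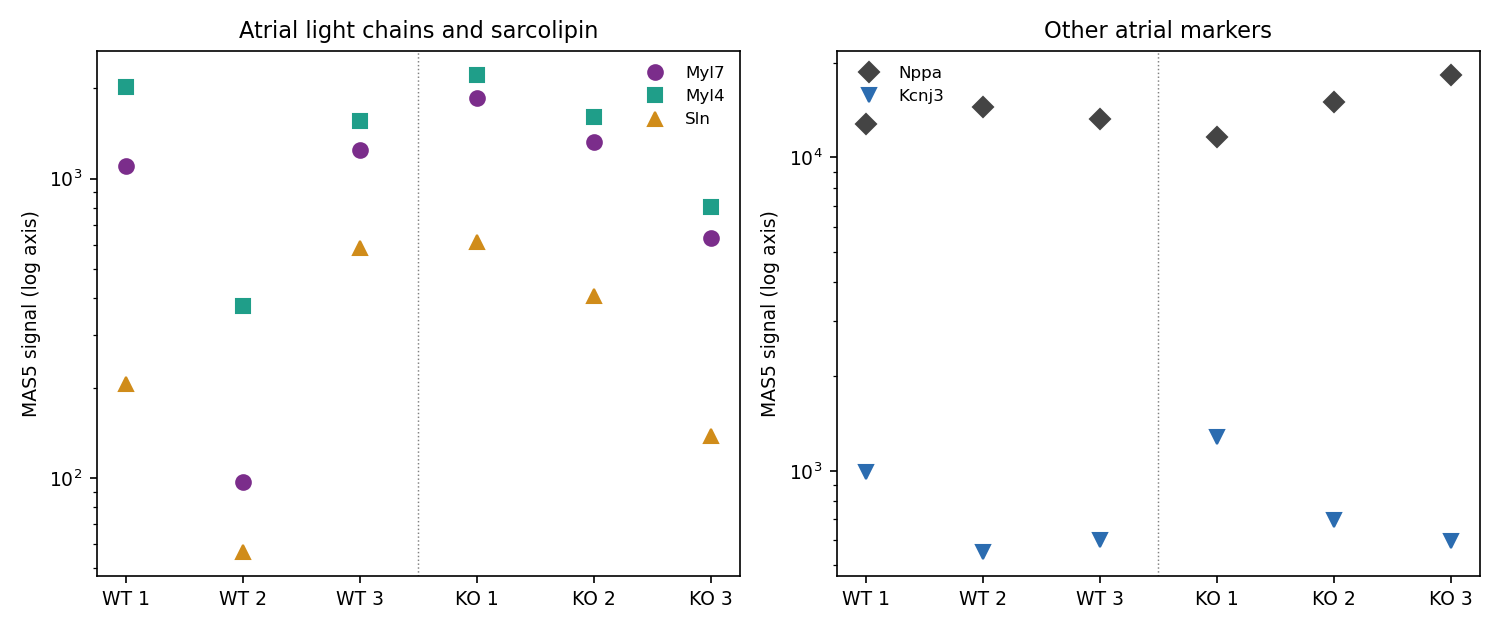
MAS5 signals (log axis) of Myl7, the brighter Myl4 probe set and Sln (left), and of Nppa and Kcnj3 (right), in each of the 6 arrays (WT, wild type; KO, knockout). Myl7, Myl4, Sln and Kcnj3 are lowest in wild type 2, next lowest in knockout 3 and highest in knockout 1, while Nppa is not.

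Genes that act on myosin were compared at the level of genes, each by its brightest probe set, over 11075 genes tested with limma. Of these, 0 had an adjusted p under 0.05 (0%), 240 an unadjusted p under 0.05 (2.17%), and 53.3% had a log2 difference above 0. In 7.46% the genotypes did not overlap. The median log2 difference over all genes was 0.01. Over the 14 lists, 121 different genes were tested: 0 passed and 3 had an unadjusted p under 0.05, namely Max, Casq1 and Mylk3. In the sentences that follow every adjusted limma p is 1 unless another is given.

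Among genes of light chain phosphorylation, 10 of 13 were tested, 7 higher and 3 lower, with a median of 0.12. In 2 of the 10 the groups did not overlap. Mylk3, the cardiac myosin light chain kinase whose substrate is Myl2, had 10325, 11252 and 9309.8 in the wild type and 8341.6, 7723.8 and 7011.4 in the knockout. The highest knockout array was below the lowest wild type array, and the log2 difference was -0.42 (SE 0.164, unadjusted p = 0.0387). Mylk4, a related kinase, had 2577, 4395.9 and 4359.5 in the wild type and 4738.9, 5720.6 and 5539.2 in the knockout. Here all knockout arrays were above (log2 0.53, SE 0.248, unadjusted p = 0.0702). With the replicate 1 arrays as a block both had an adjusted limma p of 0.586. Dapk3, a kinase that can phosphorylate myosin light chains, had 0.20 (SE 0.171), and its groups overlapped.

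Of the genes listed as transcription regulators of cardiac myosin genes, 24 of 27 were tested, 17 higher and 7 lower, with a median of 0.09. Max, the partner of Myc, had 654.7, 711.7 and 790.5 in the wild type and 466.1, 506 and 459.3 in the knockout. Every knockout array was below every wild type array (log2 -0.57, SE 0.157, unadjusted p = 0.00892). Gata4, a zinc finger factor of the heart, had 1909.4, 1690.1 and 1441.1 in the wild type and 2303.5, 2000.4 and 1978.1 in the knockout, again with no overlap (log2 0.32, SE 0.176, unadjusted p = 0.113). Gata6 had 0.33 (SE 0.248) and Sox6, a repressor of slow muscle genes in mouse skeletal muscle, 0.38 (SE 0.266), both with overlap. The same list holds the thyroid hormone receptors, through which Myh6 and Myh7 are regulated in opposite ways. Thra had 0.16 (SE 0.203) and Thrb -0.21 (SE 0.265). Between the replicate 1 arrays and over the others, Thrb had -0.82 and 0.09, and Thra had -0.002 and 0.24.

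**Figure D5:**
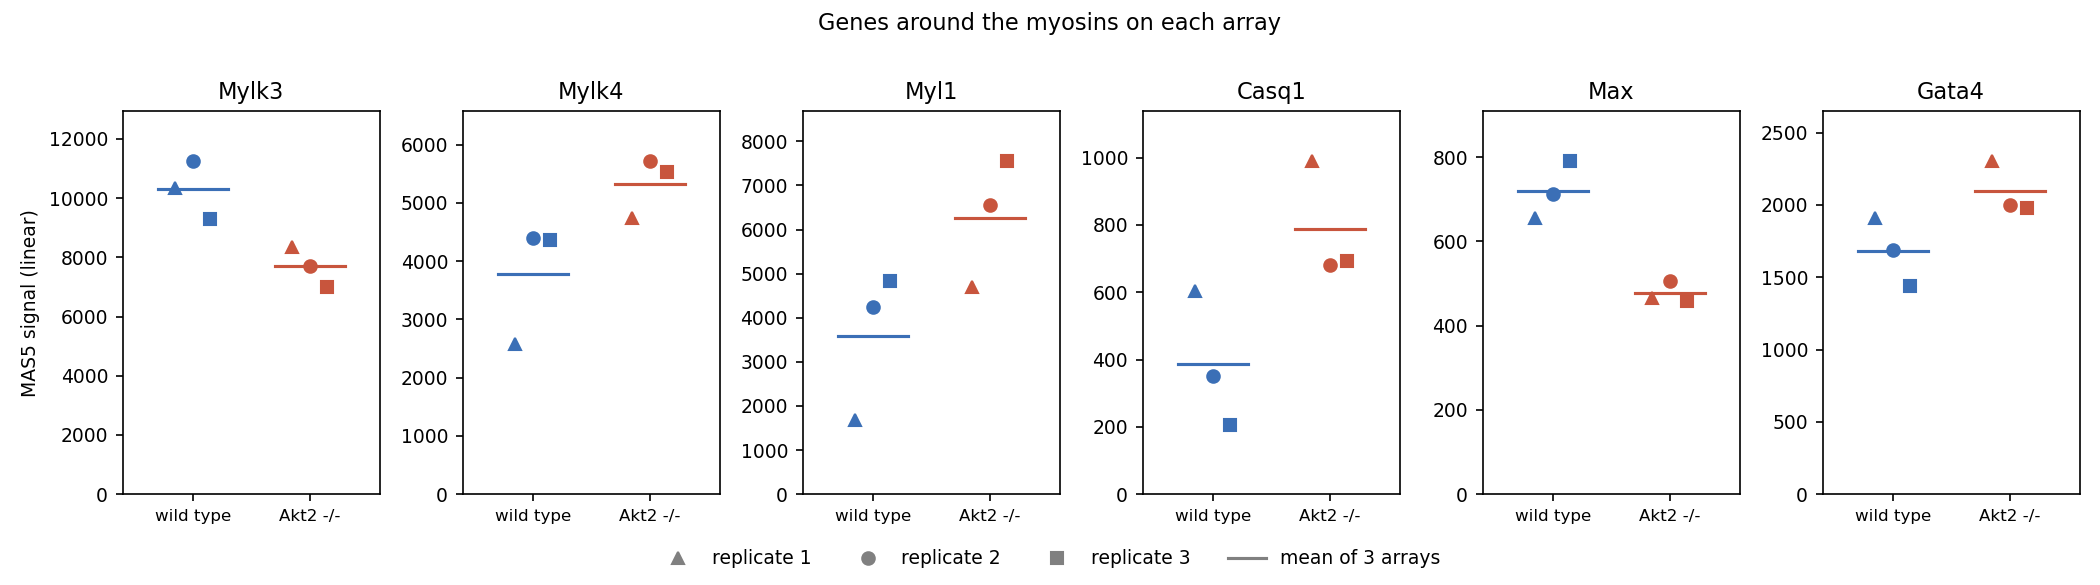
MAS5 signal (linear, vertical axis from 0) of 6 genes from the lists in the 3 wild type and 3 knockout arrays, with a line at the mean and a marker shape for each replicate number. Mylk3 and Max are lower and Mylk4, Casq1 and Gata4 higher in every knockout array, while in Myl1 knockout 1 lies just below wild type 3.

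Of 8 genes of thick filament partners and titin, 5 were tested, 3 higher and 2 lower. Mybpc3, cardiac myosin binding protein C, had 34846 ± 4979 in the wild type and 36373 ± 1099 in the knockout (SD, n = 3 each), a log2 difference of 0.07 (SE 0.171). Myom1 and Myom2, M-band proteins, had 0.09 (SE 0.182) and -0.09 (SE 0.274), and Obsl1 had 0.31 (SE 0.288). Obsl1 was 0.78 between the replicate 1 arrays and 0.08 over the others. Of 11 genes of the cardiac thin filament 10 were tested, 2 higher and 8 lower, with a median of -0.07. That median was -0.53 between the replicate 1 arrays and 0.15 over replicates 2 and 3, and Actc1, cardiac actin, had -0.74 and -0.01. Tnnc1, troponin C, had -0.68 and 0.15, whereas Lmod2 (0.05 and 0.07) and Nebl (0.23 and -0.01), both proteins of the thin filament, were not lower in knockout 1 than in wild type 1.

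Genes of myosin folding and assembly were higher in 8 of 10 tested, with a median of 0.04. Unc45a, a myosin chaperone, had 0.41 (SE 0.244), and Trim63, a ubiquitin ligase of the sarcomere, had 0.12 (SE 0.15). Smyd1, a muscle methyltransferase, had 0.08 (SE 0.199). Smyd2, its relative, was lower in every knockout array, at -0.13 (SE 0.15).

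Of the myosins of skeletal and embryonic muscle, 3 of 9 were tested, 2 higher and 1 lower, with a median of 0.22. Myh1, Myh2, Myh3, Myh4 and Myh8 were on the array and below the filter. Myl1, the essential light chain of fast skeletal muscle, had 1684.7, 4248.6 and 4835 in the wild type and 4705.1, 6545.4 and 7552.6 in the knockout. Each knockout array was above the wild type array of its number, and knockout 1 lay just below wild type 3 (log2 0.91, SE 0.419, unadjusted p = 0.0668). Myh7b had 0.22 (SE 0.426) and Mylpf, the fast regulatory light chain, -0.10 (SE 0.53). Of 12 skeletal muscle fibre markers 4 were tested, and Casq1, the calsequestrin of skeletal muscle, was higher in every knockout array, with 989.8, 679.8 and 693.9 against 603, 350.6 and 205.8 (log2 1.09, SE 0.375, unadjusted p = 0.0234). Tnni2, fast troponin I, had -0.86 (SE 0.489), and -2.57 between the replicate 1 arrays. Of the 4 tested markers, 2 were higher and 2 lower. The summed signal of the 12 markers, which depends on the probes as well as on the transcripts, was 6474 to 8881 in the knockout and 3985 to 5552 in the wild type. Most of this difference was that of Myl1, with mean signals of 6268 and 3589, which like Mylpf is on both lists. Tnnt3, Tnnc2, Actn3, Pvalb and Atp2a1 did not reach the filter. The part of skeletal muscle in these values was not tested.

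Of the non-muscle and smooth muscle myosins 8 of 9 were tested, 6 higher and 2 lower, with a median of 0.03. Myh10 had 0.22 (SE 0.207), Myh11, the smooth muscle heavy chain, 0.34 (SE 0.566), Myl6 0.06 (SE 0.249) and Myl12a 0.04 (SE 0.157).

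Markers of the tissue were checked in the same fit. Of 10 markers of ventricular myocytes 9 were tested, 3 higher and 6 lower, with a median of -0.05, and only Hey2 was below the filter. The median was -0.48 between the replicate 1 arrays and 0.16 over replicates 2 and 3, with Tnnt2 at -0.64 and 0.16. Their summed signal was 319586 to 779312 in the wild type and 375800 to 543592 in the knockout. Markers of endothelial cells were lower in 9 of 10 (median -0.16, sums 16191 to 19006 against 17580 to 21170), with Vwf at -0.32 (SE 0.165), Tek at -0.22 (SE 0.146) and Pecam1 at -0.19 (SE 0.148). In these 3 of 10 every knockout array was below every wild type array, and 7.46% of all genes had no overlap. The endothelial median was -0.18 between the replicate 1 arrays and -0.15 over replicates 2 and 3. Those of macrophages and monocytes were lower in 11 of 12 (median -0.18, sums 14956 to 28871 against 20098 to 29796), with Ccr2 at -0.57 (SE 0.345), Csf1r at -0.27 (SE 0.175) and Lyz2 at -0.43 (SE 0.318). Ccr2 was -1.70 between the replicate 1 arrays and 0.00 over the others. Fibroblast markers were higher in 7 of 10 (median 0.07), with Col3a1 at 0.26 (SE 0.161), and markers of smooth muscle and pericytes in 5 of 9 (median 0.03), with Des at -0.22 (SE 0.153). None of these markers passed over all genes, and their part in the myosin values was not tested.

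For each member, the genes whose arrays were most like it were ranked by the Pearson correlation of log2 signals over the 6 arrays, after the means of the replicate 1 arrays and of the others were taken out. For Myl2 these were Cox6b1, Cox5b and Cox6c, subunits of cytochrome c oxidase (0.999, 0.999 and 0.998). For Myh6 they were Atp5a1 (1.000), Lmna (0.999) and D16Ertd472e (0.999), and for Myl3 Cep162 (1.000), Atp5k (0.999) and Tpm1 (0.999). Myh7 was closest to Cyp4f16 (0.997), Scara5 (0.996) and Camk2g (0.996), Myl7 to Sec22a (0.997), Mrpl19 (0.995) and Lmod2 (0.992), and Myl4 to Slc7a8 (1.000), Esyt2 (0.998) and Tmed3 (0.995). Over 6 arrays such values have no p-value, and 30 to 237 of the 11075 genes had a correlation over 0.95 with each member. Several were of another size before the means were taken out, as for Scara5 with Myh7 (-0.39) and Mrpl19 with Myl7 (-0.25).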

How the data were processed

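Left ventricular RNA of 6 samples, 3 a genotype, was measured on 1 array each. The deposited values are intensities, linear signals made with MAS5 per the submitters' processing notes, which give no version or settings. In the file the mean signal without the highest and lowest 2% was 500.0 on all 6 arrays, a scaling by 1 factor an array that was kept. The number of arrays limits the precision.

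Control probe sets (64) were not tested. To each signal 21.7 was added, the 20th percentile of the table, before log2 was taken. Differences were fitted with limma 3.58.1 under R 4.3.3, by lmFit and eBayes without a covariate. The procedure had first been run on simulated data with known changes. That run checked the size of the estimates and not how many changes were called. Errors are moderated standard errors (SE) for log2 differences and standard deviations (SD) for signals. Gene symbols came from the platform annotation, in which 34945 probe sets have a single symbol, 932 several and 9160 none. A gene is represented by its probe set of highest mean log2 signal.

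The members and gene lists were chosen with earlier results of these data known. The text names all probe sets of the members, Akt2, up to 4 genes of a list by lowest unadjusted p, and the 3 genes most like each member. Thra, Thrb, Kcnj3, Nppa and Nr2f2 were named in addition, after their values were seen.

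Samples carry replicate numbers 1, 2 and 3 in both genotypes. Deviations from the genotype mean correlated at 0.61, 0.45 and 0.39 between arrays of the same number, and at 0.44 and 0.36 between number 2 of one genotype and number 3 of the other, so the pairing rests mostly on the replicate 1 arrays. A fit with the number as a block was made for this reason. Other alternatives were pseudocounts, filters, scalings, a variance estimate with trend, a block for the replicate 1 arrays, replicates 2 and 3 alone, and leaving out each array.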

Additional observations from a re-analysis of the deposited data

How the results depend on the processing

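No myosin probe set passed the threshold in any of the 16 alternative fits, in which their adjusted limma p ranged from 0.223 to 1. Over all probe sets the number past the threshold was 0, and 1 with the replicate 1 arrays as a block. The sign of the genotype difference was kept in 134 of 158 combinations of a probe set and an alternative. These counts include alternatives in which the sign could not change. The filters, the variance estimate with trend and both blocks left each estimate as it was. The difference of Myh7 was positive in all 16, and without 1 array it ran from 0.30 (without wild type replicate 3) to 0.98. The dimmer Myl4 probe set stayed negative in its 14 fits, with -1.93 to -0.64 without 1 array; it fell below the filter in the other 2. The brighter Myh6 probe set turned positive under quantile normalization (0.055), under median centring (0.019) and in replicates 2 and 3 alone (0.23). Myl2 did so under quantile normalization (0.027) and in replicates 2 and 3 alone (0.25), as did the brighter pair of Myl3 (0.013 and 0.030, and 0.18 and 0.25). Without 1 array the ranges were -0.42 to 0.47 for the brighter and -0.58 to 0.14 for the dimmer Myh6 probe set, -0.53 to 0.41 for Myl2, and -0.50 to 0.40, -0.55 to 0.45 and -0.043 to 0.26 for Myl3. They were -0.011 to 1.70 for Myl7 and -0.31 to 0.86 for the brighter Myl4 probe set. The fits without wild type 1 or knockout 1 leave a replicate 1 array in only 1 genotype. The difference of differences of the brighter Myh6 probe set became 0.0062 under quantile normalization. No myosin probe set passed in that test, while the count over all probe sets went from 143 to 294 with a pseudocount of 1 and to 1462 with quantile normalization. The balance of Myh7 and Myh6 stayed between 0.51 and 1.12 in all alternatives tried. The replicate block changed no call. The list medians of the thin filament and of ventricular myocytes changed from -0.07 and -0.05 to 0.15 and 0.16 in replicates 2 and 3 alone. Median centring moved the median over all probe sets to 0.10. Dim probe sets near the pseudocount, and the 6 arrays, limit the precision.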
